A study of Mus musculus with 5 samples.

Results

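The livers of mice kept on a high-fat, high-fructose diet (HFHFr-F) were set against those of untreated control mice. The 2 arrays were chosen by their titles out of 5 in the series, and each group is 1 array. HFHFr-F mice had the diet for 20 weeks and are labelled as having severe insulin resistance. Control mice are labelled untreated, and the labels do not name their diet. All mice were male, of the inbred C57BL/6J strain, and 25 weeks of age. RNA from liver biopsies of 5 mice per group was pooled, labelled with Cy3 and hybridised to a 1-colour array of 60-base probes. The ratios below therefore compare 2 pools: they allow no test, no p-value and no spread between animals, and the number of arrays limits the precision. Of 28628 gene names on the array, 14627 gave a signal well above background in HFHFr-F, control or both, and 13350 did so in both. The other 3 groups enter no ratio, and their values are given beside some genes near the end. HFHFr-FA had 16 weeks of the diet and then 4 weeks of it with all-trans retinoic acid, the active form of vitamin A. HFHFr-N had 16 weeks of the diet and then 4 weeks of normal diet, and HFHFr-NA likewise, with all-trans retinoic acid in the normal diet.

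The liver takes up dietary sugar and fat, turns surplus sugar into fatty acids, and stores or exports them as triglyceride. Fructose enters glycolysis below its main control point, and both sugars feed fatty acid synthesis through the transcription factors SREBP-1c and ChREBP. A liver overloaded with lipid can draw in monocytes that become lipid-associated macrophages, and its stellate cells can lay down collagen. The liver also differs between the sexes, since the pulse pattern of growth hormone in males keeps male-biased genes on and female-biased genes off.

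Signals are given as scaled signals, on which 100 is the 75th percentile spot of the array. A log2 ratio is HFHFr-F over control, so 1 means 2-fold, and "higher" and "lower" are used only of genes at least 2-fold apart. Probes spotted 10 times on each array had a median SD between spots of 0.0745 (log2) in HFHFr-F and 0.0863 in control, together 0.114 for a ratio of single spots. Among the dimmest of those probes, taken as the lower tercile, the SDs were 0.165 and 0.216. It says nothing of how mice, extractions or arrays vary. Where a gene was not well above background on 1 array, its ratio is a bound, taken against the dimmest signal that still counted as well above background on that array (7.36 in HFHFr-F, 8.63 in control), or against the gene's own signal there if that was higher. Such a gene cannot be lower on the array that measured it.

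The HFHFr-F pool still read as liver: of 16 hepatocyte markers, all well above background on both arrays, 0 were higher, 2 were lower and the median log2 ratio was -0.24. Albumin (Alb), the main plasma protein, had 143030 in HFHFr-F and 161649 in control, and transthyretin (Ttr), a carrier of thyroid hormone and retinol-binding protein, 1903 and 1475. The 2 markers below the 2-fold line were Cps1 and Tat, both of amino acid metabolism and described below. In HFHFr-F, 48.3% of non-control spots were well above background, against 46.7% in control. Both arrays lay on 1 slide and were read in 1 scan, and no spot was saturated.

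Over all measured genes, 789 (5.39%) were at least 2-fold higher in HFHFr-F and 471 (3.22%) at least 2-fold lower. Bounds made up 184 and 130 of these counts. At 4-fold the counts were 134 and 53. The median ratio of all genes was -0.08, and 5% of genes lay below -0.85 and 5% above 1.04. Counted by probe, 3.15% of 20269 measured probes were at least 2-fold lower. The shares by gene, 5.39% higher and 3.22% lower, are to be set beside each list count below, as a description only. Some lists lay near these shares, and their counts say nothing particular about their members. Examples are endothelial markers (4.35% higher, 4.35% lower) and hepatocyte transcription factors (6.25% and 3.125%). List members were chosen with earlier results of these data known, so a list count above the share is no test. Genes of high ratio that are in none of the groups described below include Ubd, H2-Q1 and Slc13a4. Ubd (FAT10), a ubiquitin-like protein induced by inflammatory cytokines, had 1959 in HFHFr-F against 83.4 in control, a log2 ratio of 4.55. H2-Q1, a class I histocompatibility gene of a family of close relatives whose shared signal was not separated, had 672 against 33.6. Slc13a4, a sulfate transporter, had 176 against 16.4 and Adgrv1, a large adhesion receptor, 337 against 34.8. Cpxm1, a secreted carboxypeptidase-like protein, had 118 against 12.5. Among genes not well above background in control, Sdcbp2, a PDZ-domain protein, was at least 26.3-fold higher, at 227 in HFHFr-F. Of the genes named below as higher or lower, Birc5, Ccr2, Ciita, Cxcl13, Fcna, Gnmt, H2-Ab1, Krt7, Ltbp2, Mki67, Mttp, Nqo1, Pdk4, Psat1, Ptprc, Slc16a1, Timp1, Tubb2a, Tubb6 and Xbp1 came under 2-fold in at least 1 other way of processing. Another probe of the gene lay on the other side of 2-fold for C3 (-1.03), Glul (1.27), Acta2 (1.12), Tubb2a (0.64) and H2-Ab1 (0.43), and one with only a bound for Vcam1 (0.88) and Timp1 (0.43). The plot of ratio by signal shows that ratios past 2-fold occurred over the whole range of signal.

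**Figure D1:**
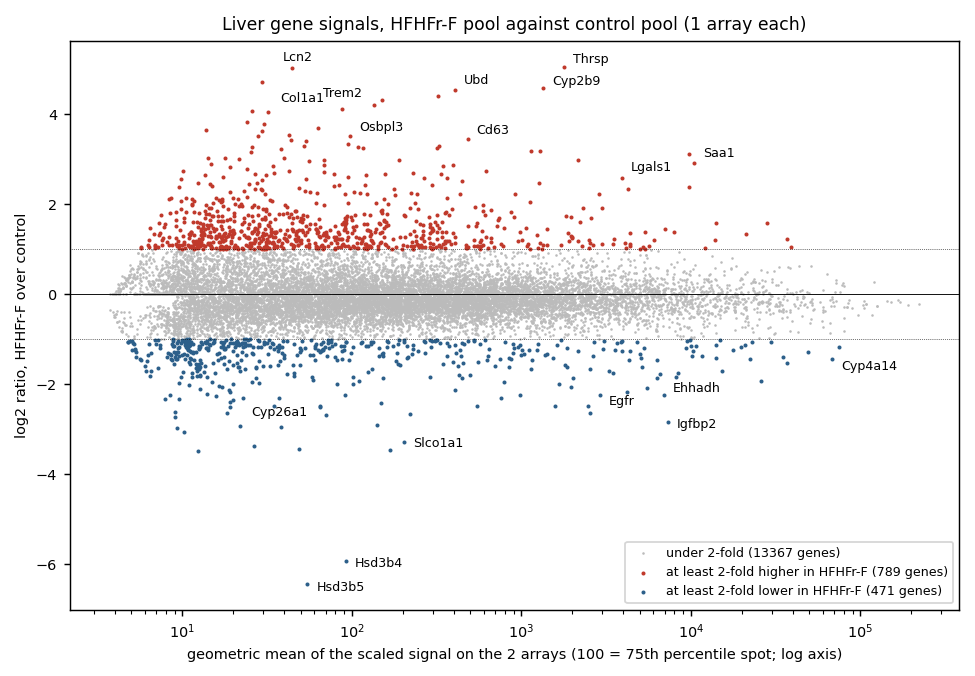
Log2 ratio of HFHFr-F over control (y) against the geometric mean of the scaled signals on both arrays (x, log axis) for 14627 genes, each a point; red points are at least 2-fold higher in HFHFr-F (789), blue points at least 2-fold lower (471), grey points under 2-fold (13367). Thrsp, Cyp2b9 and Lcn2 stand at the top, and Hsd3b4 and Hsd3b5 stand alone at the bottom, near -6.

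The upstream sequences of 5 genes at the top of the comparison are shown because pairs of close relatives among them had similar ratios. They are the 250 bases before the annotated gene start, 5′ to 3′ on the gene's strand, from RefSeq on build GRCm38.p6. In Thrsp, the fat synthesis gene with the highest ratio, capitals mark CCAAT boxes on either strand (chr7:97417551-97417800, minus strand). In Cyp2b9 (chr7:26173159-26173408, plus strand) and Cyp2b13 (chr7:26061245-26061494, plus strand), capitals mark the bases that differ between the pair. In the serum amyloid genes Saa1 (chr7:46742981-46743230, minus strand) and Saa2 (chr7:46751583-46751832, plus strand), capitals mark a C/EBP motif.
Thrsp: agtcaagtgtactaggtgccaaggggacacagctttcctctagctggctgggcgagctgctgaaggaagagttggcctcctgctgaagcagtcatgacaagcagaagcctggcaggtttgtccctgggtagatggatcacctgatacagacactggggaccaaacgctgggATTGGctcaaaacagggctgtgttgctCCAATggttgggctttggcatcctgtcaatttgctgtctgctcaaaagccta
Cyp2b9: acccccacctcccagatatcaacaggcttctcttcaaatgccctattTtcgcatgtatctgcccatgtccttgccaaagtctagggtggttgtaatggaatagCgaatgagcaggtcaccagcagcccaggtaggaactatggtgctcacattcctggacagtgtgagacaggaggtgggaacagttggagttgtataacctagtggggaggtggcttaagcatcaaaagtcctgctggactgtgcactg
Cyp2b13: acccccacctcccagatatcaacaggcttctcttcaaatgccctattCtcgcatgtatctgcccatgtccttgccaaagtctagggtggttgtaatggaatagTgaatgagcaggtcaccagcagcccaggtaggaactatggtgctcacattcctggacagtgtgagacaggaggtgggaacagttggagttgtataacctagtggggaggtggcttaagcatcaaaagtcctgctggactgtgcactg
Saa1: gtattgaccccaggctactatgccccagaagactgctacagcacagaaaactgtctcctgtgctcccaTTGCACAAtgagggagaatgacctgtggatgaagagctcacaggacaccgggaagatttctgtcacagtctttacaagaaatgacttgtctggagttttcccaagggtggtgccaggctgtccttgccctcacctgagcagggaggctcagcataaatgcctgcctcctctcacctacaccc
Saa2: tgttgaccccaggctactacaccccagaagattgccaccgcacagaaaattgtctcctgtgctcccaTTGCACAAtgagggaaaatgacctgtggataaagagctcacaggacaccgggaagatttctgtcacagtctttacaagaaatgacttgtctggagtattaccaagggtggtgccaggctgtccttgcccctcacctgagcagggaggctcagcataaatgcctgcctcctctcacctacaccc
The windows of Cyp2b9 and Cyp2b13 were identical at 248 of 250 positions, with the substitutions T48C and C104T, counted from 1 at the 5′ end with the Cyp2b9 base first. Searched on both strands, CCAAT was found at 2 places in Thrsp, starting 79 and 52 bases before the gene start, and in 33.8% of 32851 RefSeq windows of the same length. The C/EBP motif TTGCNNAA started 180 bases before the start in Cyp2b9 and Cyp2b13, 182 in Saa1 and 183 in Saa2, and was in 9.56% of windows. An E-box (CACGTG), a sterol response core (TCACNCCAC), a STAT5 motif (TTCNNNGAA) and an NF-kB motif had no match in these 5 windows, and are in 6.02%, 1.05%, 7.02% and 7.25% of all windows. Genes and motifs were picked after the ratios were seen, Hsd3b5 was searched as well without a match, and a match is a description of the letters only.

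Genes that bring sugar into glycolysis and turn it into fatty acids were higher at a few steps rather than along the whole pathway. Of 26 measured lipogenesis genes 6 were higher and 1 lower (median 0.43), and of 35 genes of glycolysis and fructose entry 4 were higher and 1 lower (median 0.20). Thrsp (Spot 14), a regulator of fat synthesis that responds to carbohydrate and thyroid hormone, had 10341 in HFHFr-F against 309 in control, 33.5-fold. Srebf1, which encodes SREBP-1c, had 4530 against 1190, and Fasn (fatty acid synthase) 3594 against 1751. Scd2, a stearoyl-CoA desaturase of low level in adult liver, had 170 against 51.0, a log2 ratio of 1.74, while the main liver desaturase Scd1 had 31313 against 21433, a ratio of 0.55. Elovl7, a fatty acid elongase not well above background in control, had 51.4 in HFHFr-F and was at least 5.95-fold higher. Elovl3, an elongase that is male-biased in liver, went the other way, with 1658 against 4264. Acaca and Acly, which supply malonyl-CoA and acetyl-CoA, lay under 2-fold, with 61.2 against 47.3 and 133 against 120. A dimmer Acaca probe, not well above background in HFHFr-F, gave a bound of -1.88.

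At sugar entry, Hk2, a hexokinase normally low in hepatocytes, had 125 in HFHFr-F against 25.8 in control, and Pklr, the liver pyruvate kinase and a ChREBP target, 157 against 53.6. Mlxipl, which encodes ChREBP itself, had 1023 against 1389 and did not reach 2-fold. Neither did Khk (ketohexokinase), which starts fructose use, with 28351 against 24834, or the fructose transporter Slc2a5, with 250 against 326. Slc16a1, a lactate transporter, was the lower member, with 1204 against 2444.

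Higher signals in triglyceride storage belonged to particular proteins. Of 35 triglyceride genes 7 were higher and 1 lower (median -0.04), and of 23 lipid droplet genes 5 were higher and 0 lower (median 0.15). Mogat1, which makes diacylglycerol from monoacylglycerol, had 585 in HFHFr-F against 173 in control, and its relative Mogat2, not well above background in control, was at least 8.24-fold higher at 71.1. Fabp4, a fatty acid carrier of fat cells and macrophages, had 2277 against 551, the fatty acid transporter Cd36 1905 against 862, and the very-low-density lipoprotein receptor Vldlr 164 against 52.6. On the droplet, Cidea had 6243 against 1328, Cidec 8175 against 3886 and Plin4 3350 against 1002. The most general coat protein of liver droplets, Plin2, had 42118 against 61892, and G0s2, an inhibitor of lipolysis, 3919 against 7641, both under 2-fold. Mttp, which loads triglyceride onto lipoproteins for export, was the lower member, with 252 against 562. Of 7 measured adipocyte markers 3 were higher, Fabp4 and Cidec among them, and 0 lower. Their median was 0.30, and 0.60 over the 6 measured on both arrays. The fat cell hormones Adipoq and Lep, of the same list, were not well above background on either array. They had 3.22 and 1.64 in HFHFr-F and 2.16 and 2.12 in control.

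Several cholesterol synthesis genes were higher. Of 24 genes of synthesis and uptake 7 (29.2%) were higher and 0 lower (median 0.66). Sqle (squalene epoxidase) had 403 in HFHFr-F and 78.9 in control, and Fdps (farnesyl diphosphate synthase) had 484 and 172. Among 22 genes of cholesterol efflux and LXR targets 5 were higher and 0 lower (median -0.02). Osbpl3, an oxysterol-binding protein relative, had 330 against 28.9, a log2 ratio of 3.51. Its other probe, measured in HFHFr-F alone, gave a bound of 3.03. Pltp, the phospholipid transfer protein of plasma, had 275 against 90.9 and Soat1, which esterifies cholesterol in macrophages, 152 against 54.4. The efflux pump Abca1 had 1429 against 1545.

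The lower genes of fatty acid oxidation were Ehhadh, Acot1 and the microsomal Cyp4a family. Of 39 members 1 was higher and 7 were lower (median -0.30, or -0.14 after quantile normalization). Ehhadh, a bifunctional enzyme of peroxisomal oxidation, had 3170 in HFHFr-F and 15011 in control, a log2 ratio of -2.24. The fatty acid hydroxylases Cyp4a10 and Cyp4a14 had 21695 against 62517 and 41363 against 112869, and Cyp4a31 87.4 against 554. Cyp4a genes are close relatives, so that their probes may share signal. Acot1, a thioesterase that is a PPARα target, had 6200 against 14095. Mitochondrial enzymes were under 2-fold, as was their regulator: Cpt1a had 8970 against 8589 (a second probe gave -0.58), Acaa2 48124 against 55335, and Ppara itself 3078 against 3340. Pdk4, a kinase that holds back glucose oxidation, was the higher member, with 505 against 247. Of 43 genes of oxidative phosphorylation 0 were higher and 0 lower, and their ratios lay between -0.35 and 0.31.

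**Figure D2:**
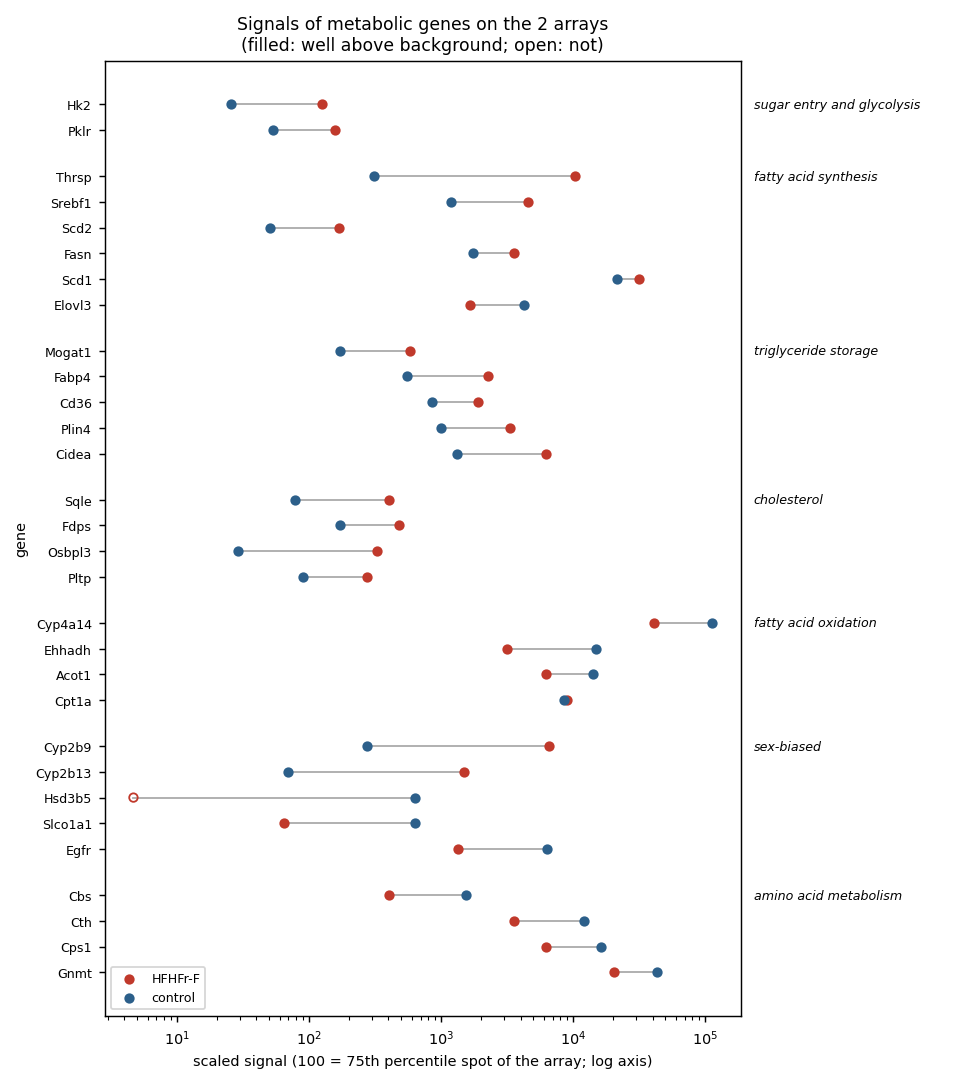
Scaled signals (x, log axis) of metabolic genes (y) in HFHFr-F (red) and control (blue), 1 array each, grouped by function; filled points are well above background and the open point of Hsd3b5 in HFHFr-F is not. Thrsp, Hk2, Osbpl3 and the Cyp2b pair lie to the right in HFHFr-F, and Cyp4a14, Ehhadh, Slco1a1, Egfr and Cbs lie to the left.

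Many male-biased genes were lower and many female-biased genes higher, with exceptions. Of 26 male-biased genes 0 were higher and 14 lower (median -1.10). In the female-biased list of 27 measured genes, 13 were higher and 4 lower (median 0.62, and 0.40 over the 23 measured on both arrays). With normexp background correction that median was 0.233. Hsd3b5 and Hsd3b4, steroid dehydrogenases on the male-biased list, had the lowest ratios of the comparison. Hsd3b4 had 11.8 in HFHFr-F and 725 in control, and Hsd3b5, with 638 in control, did not clear the background in HFHFr-F and was at least 86.8-fold lower. The probes of these near-identical relatives may read the same RNA. The organic anion transporter Slco1a1 had 65.2 against 637, the epidermal growth factor receptor Egfr 1335 against 6357, the terminal complement gene C8b 342 against 1685, and Cyp7b1, an oxysterol hydroxylase, 2953 against 9073. Egfr was spotted 10 times. The spots kept (10 in HFHFr-F, 8 in control) ranged from 1236 to 1404 in HFHFr-F and from 5869 to 6787 in control. Socs2, an inhibitor of growth hormone signalling that the hormone itself induces, had 95 against 238.

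Among female-biased genes, Cyp2b9 had 6611 in HFHFr-F against 276 in control and Cyp2b13 1495 against 69.8, 23.9-fold and 21.4-fold. Their probes (chr7:26995607-26995666 and chr7:26873757-26880713, mm9) target close relatives, whose upstream sequences are given above. Cyp2a4, a testosterone hydroxylase, had 49034 against 16289 and Fmo2, a flavin monooxygenase, 177 against 56.8. Ntrk2, a neurotrophin receptor, had 193 against 24.4. Sult1e1, the estrogen sulfotransferase, had 63.3 in HFHFr-F and was at least 6.85-fold higher, but its spot sat in a patch of bright spots on that array. The 4 lower members, named after their values were seen, were Cyp3a16 (4567 against 15458), Cyp3a41a (31242 against 76634), Cyp3a44 (8621 against 23015) and Cyp2c39 (2503 against 5323), all cytochrome P450 genes. Stat5b, which carries the growth hormone signal, had 814 against 741, and Bcl6, a repressor of female-biased genes, 1822 against 1529.

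In the list of drug-metabolising cytochrome P450 genes and their receptors, 0 of 27 members were higher and 4 lower (median -0.39, or -0.25 with normexp and quantile normalization). The list leaves out the P450 enzymes of bile acid synthesis and of the sex-biased lists, some of which were higher. Cyp3a11, the main drug-metabolising P450 of its family in mouse liver, had 8497 in HFHFr-F and 27561 in control, Cyp2c23, an arachidonic acid epoxygenase, 1814 and 5941, and Cyp2c54 399 and 1214. Cyp2e1, which oxidises ethanol, had 33111 and 27387. Their regulators Nr1i3 (CAR) and Ahr had 1025 against 1027 and 438 against 453. Of 39 phase II and NRF2 target genes 6 were higher and 0 lower (median 0.07). They included the sulfotransferase Sult1c2, with 942 against 201, the haem oxygenase Hmox1, with 1325 against 407, and Nqo1, a quinone reductase, with 281 against 139.

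Many enzymes of amino acid breakdown, the urea cycle and sulfur amino acids were lower. Of 46 members 2 were higher and 12 lower (median -0.67). Cbs, which makes cystathionine from homocysteine, had 403 in HFHFr-F and 1551 in control, a log2 ratio of -1.94, and Cth, the next enzyme, 3570 and 12124. In the urea cycle Cps1 had 6281 and 16251, Asl 3776 and 10417, and Ass1 6087 and 11374, the last under 2-fold. Gnmt, which uses up S-adenosylmethionine, had 20495 and 43027, and Bhmt, which remethylates homocysteine, 17065 and 27561, a ratio of -0.69. The glutamate enzyme Oat had 13197 and 29845, and Hal, the histidine ammonia-lyase, 2818 and 6721. Both higher members belong to serine synthesis or glutathione turnover: Psat1, not well above background in control, was at least 4.02-fold higher at 34.7, and Chac1 had 210 against 71.4.

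Several of these enzymes are markers of periportal hepatocytes, which lie near the incoming blood. Of 17 periportal markers 1 was higher and 5 were lower (median -0.58). Etnppl, a phospholyase, had 1061 in HFHFr-F and 3867 in control, while Cyp2f2 had 24436 and 27509, and Aldh1b1 was higher, with 1643 and 462. Of 16 pericentral markers 3 were higher and 2 lower (median 0.05, and -0.18 over the 15 measured on both arrays). Glutamine synthetase (Glul) had 17752 and 9887, a ratio of 0.84. In whole tissue, fewer cells of a type and less RNA per cell cannot be told apart, here and for every cell type below.

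Few genes of the insulin and growth factor axis were past 2-fold. Of 31 members 0 were higher and 2 lower (median 0.12). Igfbp2, an insulin-like growth factor binding protein, had 2720 in HFHFr-F against 19518 in control, a log2 ratio of -2.84 (probe at chr1:72898677-72898736, mm9). Igfbp1, normally repressed by insulin, had 9744 against 7669, and the insulin receptor Insr 134 against 185. Irs1, an adaptor of the receptor, had 401 against 736. Igf1 had 8588 ± 198 in HFHFr-F and 15527 ± 324 in control (SD over 10 spots of each array), a ratio of -0.85 under 2-fold, and its other probes ranged up to 0.18. Of 23 genes of gluconeogenesis and glycogen 2 were higher and 2 lower. The higher members were the mitochondrial Pck2, with 168 against 62.4, and the glycogen branching enzyme Gbe1, with 7570 against 3758. The lower members were the transaminase Got1, with 1891 against 6323, and Tat, a tyrosine transaminase, with 6701 against 16013. G6pc, the last step of glucose release, had 4259 against 6370 and did not reach 2-fold. Of 26 hepatokines, proteins secreted by the liver, 6 were higher and 1 lower. Gdf15, a stress-induced hormone, had 1117 against 329, Nrg4, a growth factor, 492 against 182, and Lect2, a chemotactic protein, 9200 against 3986. Fgf21 had 318 against 571, under 2-fold.

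Retinoid genes, measured here in mice given no added retinoic acid, were found on both sides. Of 32 members 3 were higher and 4 lower (median 0.05). Cyp26a1, a retinoic acid target whose product breaks retinoic acid down, had 27.6 in HFHFr-F and 153 in control, a log2 ratio of -2.47. Retsat, a retinol saturase, had 7288 and 18761. The retinoic acid receptor Rarb had 134 ± 7.03 over 10 spots in HFHFr-F and 80.2 ± 2.40 over 9 spots in control (SD), a ratio of 0.74. Lrat, which stores retinol as ester in stellate cells, had 95.4 and 77.3.

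Of 20 members of the bile acid synthesis list 1 was higher and 3 lower (median -0.45). The higher member was Cyp7a1, the first enzyme of the classical route, with 990 in HFHFr-F and 478 in control. Cyp8b1, which makes the cholic acid branch of that route, had 380 and 694, and Cyp27a1, which starts the alternative route, 594 and 1048, both under 2-fold. Cyp7b1 of the alternative route was lower, as given above. The other lower members are regulators. Nr0b2 (SHP), a repressor of Cyp7a1 that bile acids induce, had 90.4 and 232, and Klb, the co-receptor for the gut hormone FGF15, 284 and 668. Of 20 bile acid and organic anion transporters 2 were higher and 2 lower. The export pump Abcb11 had 7349 and 12106 and the uptake carrier Slc10a1 1842 and 2980, both under 2-fold.

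Acute phase genes, which hepatocytes switch on in inflammation, were higher in part. Of 28 members 10 were higher and 1 lower (median 0.28). Saa1 and Saa2, serum amyloids, had 28931 in HFHFr-F against 3800 in control and 28691 against 3309. Their probes may share signal. Lcn2 (lipocalin 2), an iron-withholding protein also found in neutrophils, had 281 in HFHFr-F and was at least 32.6-fold higher. Orm3, an orosomucoid, had 585 against 90.3, and the metallothioneins Mt1 and Mt2 7031 against 2738 and 24243 against 8064. Abundant classical members stayed under 2-fold: haptoglobin (Hp) had 132596 against 109582 and fibrinogen (Fgb) 94342 against 116497. Hepcidin (Hamp), which blocks iron export and is usually induced with the acute phase, was lower, with 3317 against 11991, while its relative Hamp2 had 881 against 380. Neutrophil markers besides Lcn2 included S100a9, with 547 against 198, and Csf3r, with 21.7 against 23.5; Mpo was not well above background on either array.

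Stress responses of the endoplasmic reticulum did not show higher members. Of 30 genes 0 were higher and 2 lower (median -0.24). Xbp1, its transcription factor, was among the lower members, with 368 in HFHFr-F and 757 in control. The chaperone Hspa5 (BiP) had 8598 and 16326 and Ddit3 (CHOP) 95.8 and 83.3, both under 2-fold. Of 22 heat shock genes 1 was higher (median -0.30). Among 21 immediate early genes 5 were higher and 0 lower. Atf3, a stress-induced transcription factor, had 144 against 13.3, a log2 ratio of 3.43. Myc had 116 ± 6.10 against 36.3 ± 4.80 and Jun 233 ± 7.85 against 91.5 ± 7.86 (SD, 10 spots on each array). Fos had 12.4 ± 2.18 against 3.37 ± 1.28 (SD, 10 spots on each array). It was not well above background in control, so that its ratio is only a bound, of 0.50.

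Genes of DNA damage, growth and cell shape formed a further block. Of 33 genes of p53, DNA damage and cell death 6 were higher and 1 lower, and of 34 cell cycle genes 12 were higher and 0 lower, with medians of 0.33 and 0.78. In the cell cycle list 5 members were measured in HFHFr-F alone and could not be lower. Cdkn1a (p21), a brake on the cell cycle and p53 target, had 397 ± 10.4 over 9 spots in HFHFr-F and 62.3 ± 8.75 over 10 spots in control (SD). Phlda3, another p53 target, had 277 against 51.3. Mki67, a marker of cycling cells, had 46.9 against 14, Birc5, of mitosis, 102 against 39.3, and cyclin D1 (Ccnd1) 356 against 163. Pcna, a sliding clamp of replication, had 1085 against 1087, and Top2a was not well above background on either array.

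Of 43 genes of the cytoskeleton and membrane remodelling 18 were higher and 1 lower (median 0.93), and their summed signal was 84998 in HFHFr-F against 43946 in control. S100a11, a calcium-binding protein, had 359 against 37.6, a log2 ratio of 3.26, and S100a4, also of this family, 889 against 148. Galectin 1 (Lgals1) had 9557 against 1598, annexin A2 (Anxa2) 490 against 103, annexin A5 (Anxa5) 3871 against 1261 and the actin-capping Capg 197 against 41.7. The tubulin Tubb2a had 11717 against 4273. The tubulin Tubb6 had 543 against 187, but another of its probes gave -0.30. Many of these genes are expressed in macrophages and fibroblasts, whose markers were also higher (below), and their part in these ratios was not tested.

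Many markers of lipid-associated macrophages and of monocytes were higher, while markers of resident Kupffer cells were found on both sides. In the list of lipid-associated macrophages, 10 of 15 measured markers were higher and 0 lower, median 1.63 (1.5 over the 12 measured on both arrays). Of 35 monocyte and macrophage markers 19 were higher and 0 lower (median 1.05), and of 18 Kupffer cell markers 3 were higher and 2 lower (median 0.33). Members measured in HFHFr-F alone, 3 of the lipid-associated and 5 of the monocyte markers, could not be lower. Trem2, a lipid-sensing receptor, had 581 in HFHFr-F against 31.2 in control and the lysosomal protein Cd63 1591 against 146 (probe at chr10:128348658-128348871, mm9). Spp1 (osteopontin) had 6047 ± 213 over 10 spots against 767 ± 36.7 over 9 spots (SD). Itgax (CD11c) and Gpnmb, not well above background in control, were at least 14.2-fold and 6.66-fold higher, at 122 and 57.5. Clec7a, a receptor for fungal glucans, had 851 against 133. Apoe, which hepatocytes express as well, had 135600 against 150387. Ctsk and Atp6v0d2 were not well above background on either array.

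Among monocyte markers, Ly6c2 had 1603 in HFHFr-F and 240 in control, Ms4a7 131 and 22.2, Chil3 110 and 16.3, and the co-receptor for endotoxin Cd14 320 and 74.1. Ccr2, the receptor for Ccl2, was at least 3.78-fold higher, at 32.6. The pan-leukocyte Ptprc (CD45) had 154 ± 5.61 and 75.5 ± 4.01 (SD, 10 spots each). Of the Kupffer cell markers, Clec4f had 1126 and 1026, Vsig4 194 and 187, and Timd4 30.4 and 55.5, each under 2-fold. The higher members were Spic, a transcription factor of iron-handling macrophages, with 233 and 38.4, the scavenger receptor Marco, with 3772 and 1718, and the secreted Cd5l, with 6466 and 2970. Fcna, a ficolin, and C6, a complement gene that is also on the male-biased list, were the lower members, with 142 and 317, and 419 and 981.

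Chemokines and innate sensors were higher at some of their measured members. Of 37 chemokine and cytokine genes 13 were higher and 2 lower (median 0.53), and of 28 genes of innate sensing and NF-kB 8 were higher and 0 lower (median 0.56). Respectively, 9 and 5 of these members were measured in HFHFr-F alone and could not be lower. Ccl2, which draws monocytes, had 165 ± 8 in HFHFr-F and 17.0 ± 3.17 in control (SD, 10 spots each). Ccl4 was at least 9.73-fold higher, at 84.0. The toll-like receptor Tlr2 had 164 and 50.4, the adhesion molecule Vcam1 756 and 204, and Tnfaip3, an inhibitor of NF-kB signalling, 157 and 51.6. Il1b had 37.4 and 26.3, and Tnf and Nlrp3 were not well above background on either array. Cxcl13, a B cell chemokine, was at least 5.23-fold lower: it did not clear the background in HFHFr-F and had 43.7 in control. Of 34 interferon response genes 7 were higher and 0 lower, among them Ifi44, with 80.3 and 20.1. Of 43 lysosome genes 6 were higher and 0 lower (median 0.31), including cathepsin S (Ctss) at 3083 and 1285.

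Few members of the lymphocyte marker lists were past 2-fold. Of 16 measured T and NK cell markers 2 were higher and 1 lower (median 0.15), and 4 measured in HFHFr-F alone could not be lower. The T cell receptor components Cd3e and Cd3d had 32.6 in HFHFr-F against 32.2 in control and 24 against 32.6. Of 10 B and plasma cell markers 0 were higher and 1 lower, and the lower member was Xbp1, shared with hepatocytes. Igh-2 and Igh-VJ558, immunoglobulin heavy chain genes outside that list, were among the 20 lowest ratios measured on both arrays. Igh-2 had 27 against 155, a log2 ratio of -2.52, and its other probe gave -2.80. Igh-VJ558 had 63.7 against 343, a ratio of -2.43, while its other probe gave -0.12. Of 14 markers of dendritic cells and class II presentation 6 were higher and 0 lower (median 0.94), and 3 measured in HFHFr-F alone could not be lower. H2-Ab1 had 1872 against 929 and Ciita, the class II activator, 44.9 against 17.2.

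Many collagen and matrix genes were higher, with type I and type III collagen in front. Of 20 measured collagens 9 were higher and 0 lower (median 0.77), and of 32 other matrix proteins and enzymes 16 were higher and 0 lower (median 1.0). Respectively, 4 and 8 of these members were measured in HFHFr-F alone and could not be lower. Without a filter on dim probes the collagen median was 0.226. Col1a1 had 365 ± 16.3 in HFHFr-F and 21.2 ± 3.74 in control (SD, 10 spots each), with spots between 340 and 386 in HFHFr-F and between 13.3 and 27.1 in control. A second probe, measured in HFHFr-F alone, gave a bound of 1.51. Col3a1 (probe at chr1:45405589-45405648, mm9) had 1021 and 104, and Col1a2 760 and 173. Lumican (Lum), which binds collagen fibrils, had 677 and 191, Nid1, of basement membranes, 274 and 87.7, and Timp1, an inhibitor of matrix proteases, 423 and 210. The protease Mmp13 was at least 4.38-fold higher, at 37.9. Fibronectin (Fn1), which hepatocytes secrete, had 1334 and 1588, and the crosslinker Lox was not well above background on either array.

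Of 25 genes of TGF-beta signalling, the main pathway that induces collagen, 5 were higher and 0 lower (median 0.32). The ligand Tgfb1 had 25.4 in HFHFr-F and 15.5 in control, a ratio of 0.71, and its latent binding protein Ltbp2 44.7 and 11.1. The stellate cell and fibroblast list had 6 of 19 higher and 0 lower (median 0.36). Pdgfrb, a growth factor receptor of stellate cells, had 268 and 93.3. Acta2, the smooth muscle actin of activated stellate cells, had 330 and 206, a ratio of 0.68, Reln 452 and 363, and Des was not well above background on either array. Of 15 cholangiocyte markers 7 were higher and 1 lower, with Krt7 at 56.3 and 24.6, Sox9 at 64.3 and 69.2 and Krt23 lower at 328 and 932. Spp1 counts in this list too, and 3 members measured in HFHFr-F alone could not be lower. Of 23 endothelial markers 1 was higher and 1 lower (median 0.03). Pecam1, close to the background, had 10.6 and 10.4. Kdr, of the same list, had 343 ± 17.9 and 514 ± 25.3 (SD, 10 spots each), under 2-fold.

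**Figure D3:**
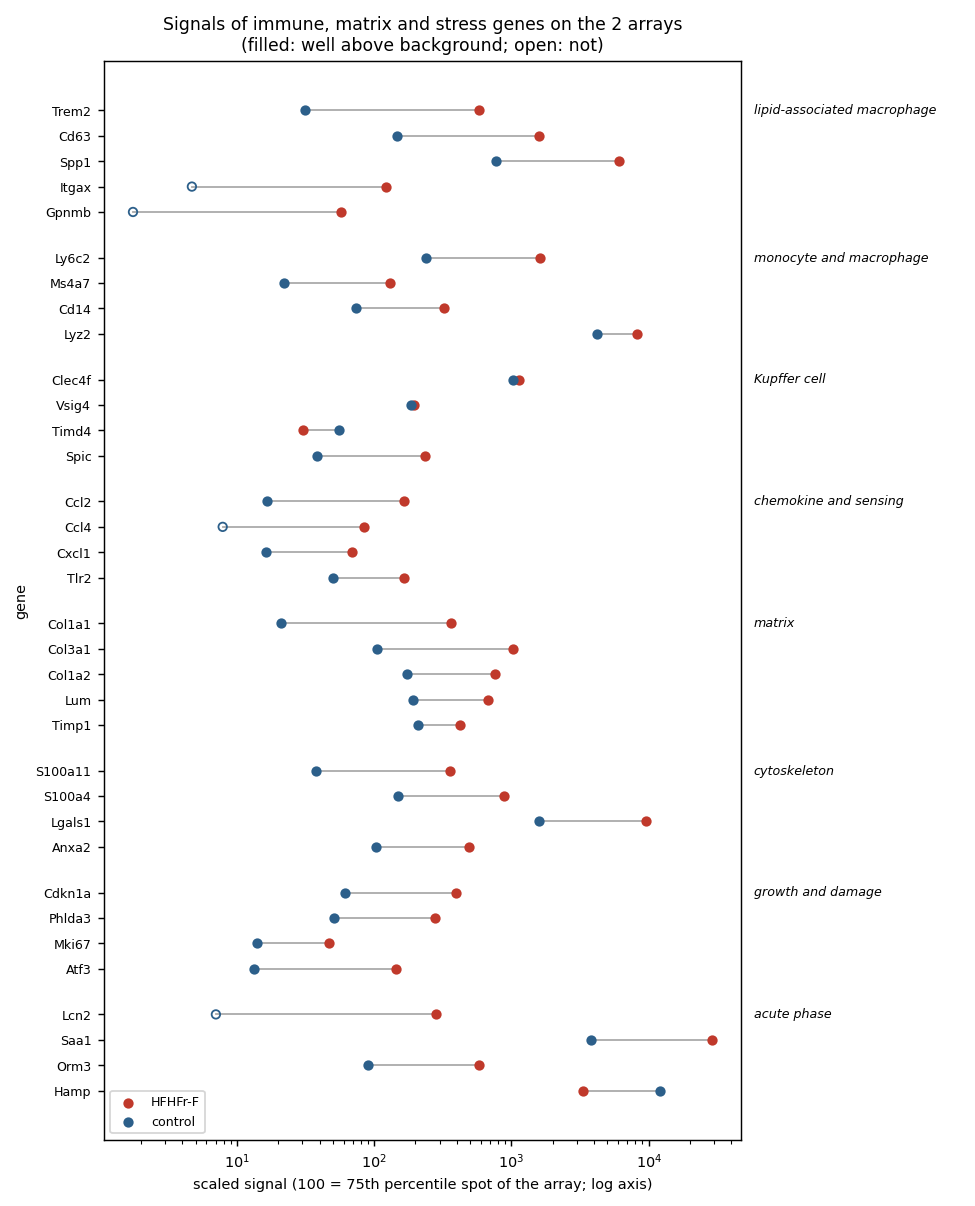
Scaled signals (x, log axis) of immune, matrix, cell shape, growth and acute phase genes (y) in HFHFr-F (red) and control (blue), 1 array each; open points are not well above background. Trem2, Cd63, Col1a1, Ccl2, S100a11 and Saa1 lie to the right in HFHFr-F, the Kupffer cell genes Clec4f and Vsig4 nearly coincide, and Timd4 and Hamp lie to the left.

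Some lists held few or no members past 2-fold. Ribosomal proteins had 0 of 30 higher and 0 lower (median -0.15), and erythroid markers 0 of 9. Of 37 complement and coagulation genes 1 was higher and 2 lower, C3 having 113796 ± 5501 in HFHFr-F and 137262 ± 6987 in control (SD, 10 spots each). Of 32 hepatocyte transcription factors 2 were higher and 1 lower. Klf6, a factor induced by injury, was a higher member, with 1185 and 297. Hnf4a, a master regulator of hepatocytes, had 862 and 1512 and Cebpa 2517 and 2969, both under 2-fold. In the circadian clock list 2 of 16 were higher and 1 was lower. Nr1d1 (REV-ERBα) had 13.7 and 106, a log2 ratio of -2.95, while Arntl (BMAL1) had 42.3 and 44.1 and Dbp 3007 and 4638. The time of day of collection is not given in the labels. The plot of 24 lists shows the spread within each list beside its median.

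**Figure D4:**
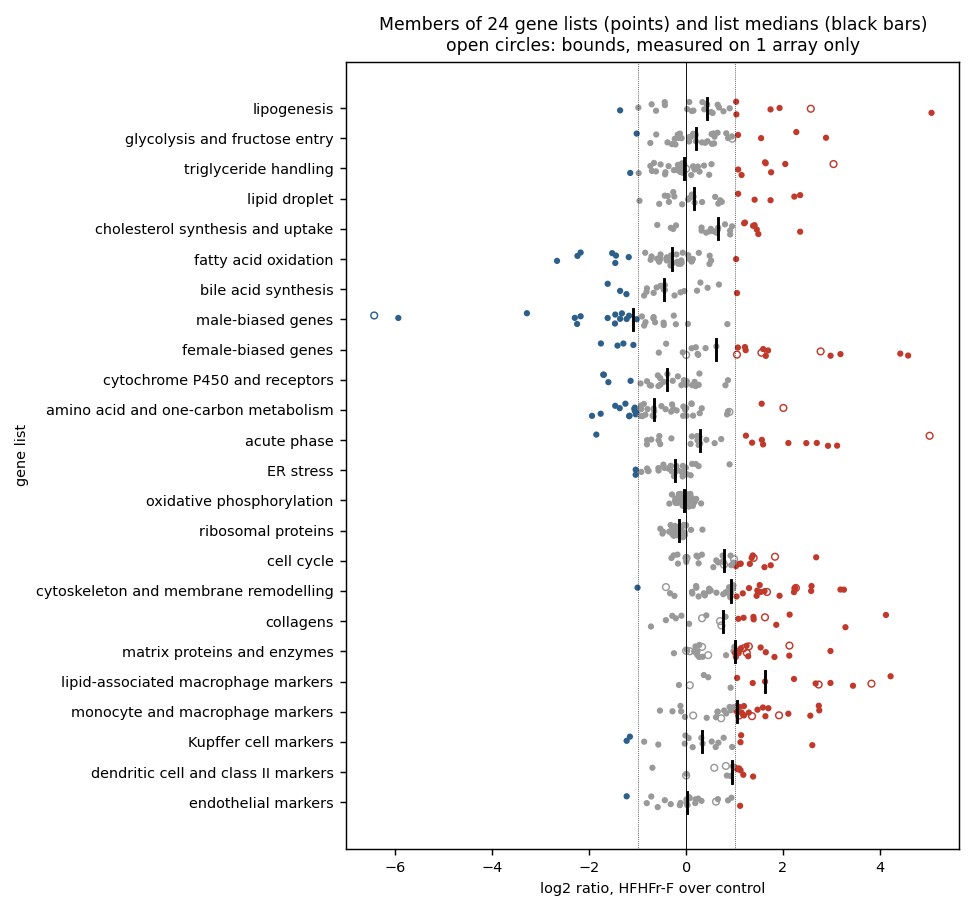
Log2 ratios of HFHFr-F over control (x) for the measured members of 24 gene lists (y); each point is a gene, red at least 2-fold higher, blue at least 2-fold lower, open circles are bounds, and black bars are list medians. The medians run between -1.10 for male-biased genes and 1.63 for lipid-associated macrophage markers, and oxidative phosphorylation and ribosomal proteins form tight clusters inside 2-fold.

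The 3 other arrays place the HFHFr-F values among livers whose diet was changed for the last 4 weeks. Thrsp had 10341 in HFHFr-F, 756 in HFHFr-FA, 1006 in HFHFr-N, 970 in HFHFr-NA and 309 in control, so that HFHFr-F stood apart. Cyp2b9 had 6611, 3438, 2282, 749 and 276 in the same order, a graded series with control lowest. Osbpl3 had 330, 181, 153, 153 and 28.9, with all 4 groups that had been on the diet above control. Trem2 had 581, 221, 64.9, 124 and 31.2, and Col3a1 1021, 311, 176, 114 and 104. For both, HFHFr-F was highest and HFHFr-FA next. Atf3 had 144, 147, 24.6, 19.9 and 13.3, and Cdkn1a 397, 518, 23.8, 40.8 and 61.8, so that these genes were high in the groups still on the diet and low in the others. Saa1 was highest in HFHFr-FA, with 28931, 56879, 11805, 17527 and 3800. Among lower genes, Igfbp2 had 2720, 14983, 10417, 17461 and 19518, and Hsd3b4 11.8, 237, 471, 157 and 725. HFHFr-F was lowest for both. Ehhadh had 3170, 6961, 7011, 6762 and 15011, with the 3 other diet groups between HFHFr-F and control. Cbs had 403, 882, 1257, 1548 and 1551. The HFHFr-FA array was on a slide and in a scan of its own, and each of these groups is again 1 pool.

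**Figure D5:**
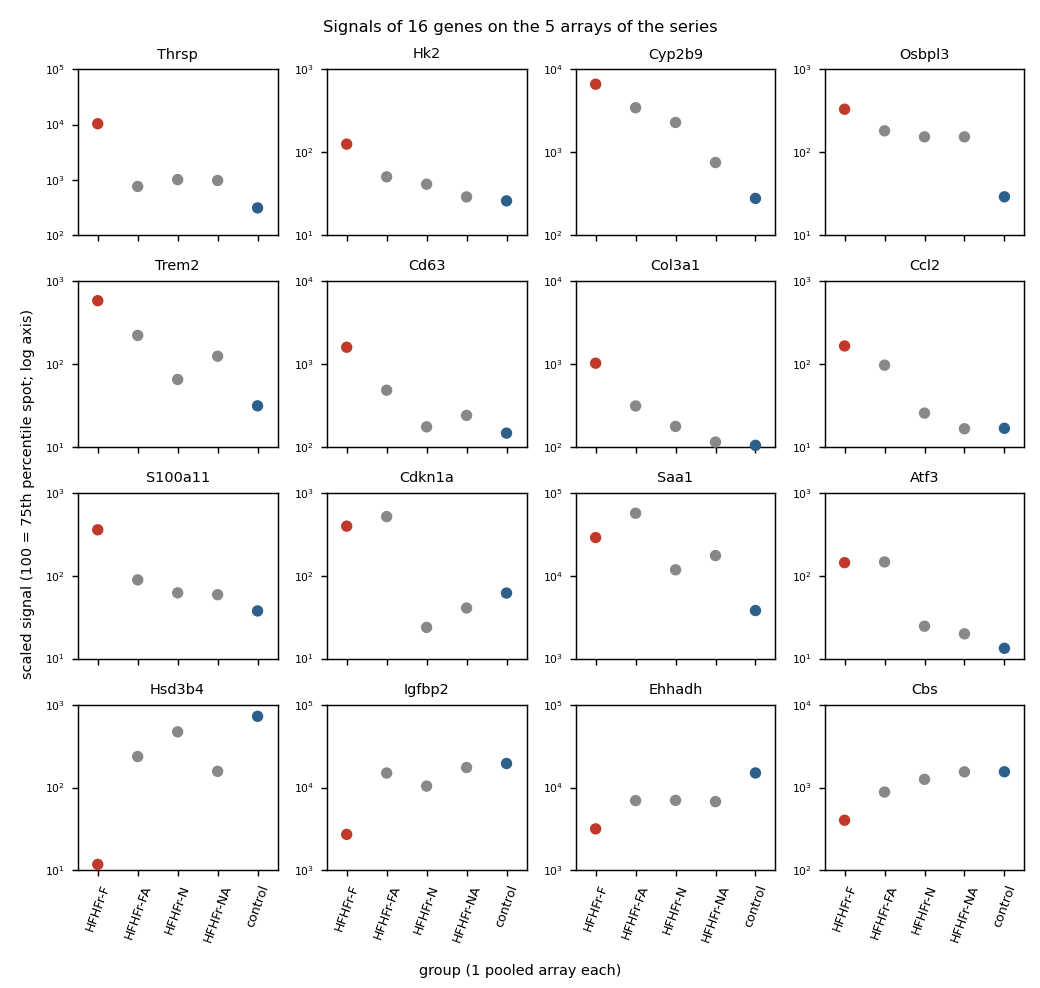
Scaled signals (y, log axis) of 16 genes on the 5 arrays (x: HFHFr-F, HFHFr-FA, HFHFr-N, HFHFr-NA, control), each point 1 pooled array; red marks HFHFr-F and blue marks control. HFHFr-F is the highest of the 5 for Thrsp, Cyp2b9, Trem2 and Col3a1 and the lowest for Hsd3b4, Igfbp2, Ehhadh and Cbs, whereas Saa1, Atf3 and Cdkn1a are highest in HFHFr-FA.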

How the data were processed

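The deposited scanner files hold, for each spot, processed, mean and local background intensity; per the file headers, the processed intensity has had background and a spatial trend removed (Feature Extraction 10.5.1.1, probe positions on mm9). Set against the scanner values, the value table deposited by the authors proved to be a linear ratio, the processed intensity over 1 constant per array, uncentred and of the same direction; its median was 0.0675 in HFHFr-F and 0.0700 in control, and the origin of the constant is unknown. Processed signals were divided by the 75th percentile of the array's 43379 spots other than controls (222.6 in HFHFr-F, 173.9 in control), put on the log2 scale and averaged over a probe's spots. Spots the software called outliers, 95 in HFHFr-F and 89 in control, were left out. A probe counted as measured where at least 0.5 of its spots were well above background. Of 41174 probes 25001 were named through the RefSeq table (GRCm38.p6, names only) and 16173 by the file, some of whose names are old; whether probes lie in exons, introns or UTRs was not determined. The probe with the highest mean over the 5 arrays stood for each of 8588 genes with several probes. A spot was said to sit in a bright patch where at least 3 of its 8 neighbours were likewise more than 1 (log2) brighter than the median of the other 4 arrays.

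There were 53 lists, 38 of pathways and 15 of cell types, with 1404 of 1426 symbols matched and 121 genes in several lists. Genes were named by a rule: the 20 highest and 20 lowest ratios measured on both arrays, the 6 highest and 6 lowest bounds, and in each list the members marked as key, up to 8 others with the largest ratio and members spotted 10 times. Not all of them are printed. Of 641 named genes 17 had another probe that differed. Members, lists and motifs were chosen with earlier results of these data known. Pck1 was not analysed here. The ratio step was tested on simulated data. Computation used Python 3.11.15, pandas 2.3.3, R 4.3.3 and limma 3.58.1. The alternatives were other scaling, background correction, filters, probe summaries, the value table and outlier spots kept. Some members of the lists are not reported by name here.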

Additional observations from a re-analysis of the deposited data

How the results depend on the processing

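With 789 genes at least 2-fold higher and 471 lower (62.6% of them higher), the split was 75% higher after cyclic loess (1019 and 339), which moved the median of all genes by over 0.1, to 0.03. Normexp background correction, with an offset of 50 added to each signal, followed by quantile normalization gave 341 and 146 (70% higher). Without a detection filter, which lets in dim probes, the counts were 1560 and 1558 (50%). At 1.5-fold they were 1699 and 1712, and at 4-fold 134 and 53. Under the other alternatives, median centring, quantile normalization, genes measured on both arrays, the mean or the median of all probes, the value table and outlier spots kept, they lay within 1.5 times of these counts. Of 292 named genes past 2-fold, 195 stayed past it in the same direction in each alternative that gave a value, none turned round, and 89 came under 2-fold with normexp, where the cause was not tested. The median of the T and NK cell list was -0.129 without a filter, and that of the B and plasma cell list 0.018 after loess and 0.006 with normexp. Over the alternatives the lowest median was 0.456 for cell cycle, 0.552 for matrix and 0.211 for cholangiocyte genes. No paired analysis was possible because each group has 1 array. Dim probes have only bounds on 1 array, and no alternative stands in for replicate pools.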

Other observations

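Alpha-fetoprotein (Afp), a plasma protein of fetal liver, is on no list and was picked after its values were seen. It had 125 ± 8 in HFHFr-F and 30.7 ± 2.03 in control (SD, 10 spots each). Several genes not known for liver roles were among the lowest. Olfr166, an olfactory receptor, had 51.1 ± 6.91 over 9 spots in HFHFr-F and 573 ± 130 over 9 spots in control (SD), and the other 3 groups had 363 in HFHFr-FA, 335 in HFHFr-N and 394 in HFHFr-NA. Mc1r, a melanocortin receptor, had 14.9 in HFHFr-F, 85.6, 86.4 and 93.6 in the same other groups, and 161 in control. Defb19, a defensin, had 27.8 in HFHFr-F, 146, 131 and 169 in these groups, and 180 in control. Ms4a12 was well above background in control alone, at 61.5, with 1.70 in HFHFr-F.

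Some probes that were low only on the HFHFr-F array share letters. The string ATCCCTTCC was in 8 measured probes, of which 6 were at least 2-fold lower and 0 higher, against 3.15% of 20269 measured probes lower. Their median log2 ratio was -1.71, against -0.11 for all measured probes. The string was taken from the letters of the Mc1r probe, among the lowest, after the values were seen. All 5 strings tried came from that probe. Mc1r itself is in these counts and in the median, so they are no test. Among the lower probes, Ogfod1, AK007258 and Scn2a have only bounds, with 31.6, 20 and 15.8 in control. The longer TCATCCCTTCC was in 3 probes, 3 of them lower, CCCTTCC in 102, 16 lower, CATCCC in 250, 22 lower, and TCATCC in 316, 23 lower. Stretches of 3 of the probes, on the mm9 build with the string in capitals, are given to show its setting.
Mc1r (chr8:125932417-125932476, bases 1 to 29): acaggtactcATCCCTTCCtgatctccat
C530036F05Rik (chr4:8525810-8525869, bases 35 to 60): gtgctgcatcATCCCTTCCccacatc
Scn2a (chr2:65508693-65508752, bases 30 to 58): aagcaggaaaATCCCTTCCttttatttat
These had 14.9 in HFHFr-F and 161 in control for Mc1r, and 42.0 and 199 for C530036F05Rik, while Scn2a did not clear the background in HFHFr-F and had 15.8 in control. Of the 8, Cilk1 and Napsa were under 2-fold, with ratios of -0.47 and 0.98. No cause was tested.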
